A study of Mus musculus with 8 samples.

Results

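N4-acetylcytidine (ac4C) peaks were described for 10 mouse genes of the mTOR pathway, namely Mtor, Rptor, Rictor, Deptor, Tsc1, Tsc2, Rheb, Rragc, Rps6kb1 and Rps6kb2, of 11381 genes with a peak in the series. A peak was taken as one of theirs where the deposited tables gave it the name of the gene. The genes were chosen by their place in the pathway and with their presence in the lists, their fold and their rank by fold already seen, so these values are a description and no test was made on them. All 10 genes had a peak, with 104 peaks between them.

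The mTOR kinase is the core of a pair of complexes that tune growth to nutrients and growth factors. Complex 1, defined by the scaffold raptor (Rptor), is switched on at the lysosome by the GTPase Rheb and is brought there by the Rag GTPases, to which Rragc belongs, and the tuberous sclerosis proteins Tsc1 and Tsc2 hold Rheb in its inactive state. Complex 2, defined by rictor (Rictor), acts on kinases such as Akt. The S6 kinases Rps6kb1 and Rps6kb2 are targets of complex 1 that promote protein synthesis, and in the ovary the pathway is best known for its part in the activation of dormant follicles.

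Acetylated RNA immunoprecipitation and sequencing (acRIP-seq) enriches RNA fragments that carry ac4C, an acetyl mark on cytidine written by NAT10. The cells were female germline stem cells (FGSCs) in culture, labelled as the control group, and the germ cells obtained from them after differentiation for 3 days (Dif-FGCs), which by the study's methods were co-cultured with granulosa cells and given retinoic acid, BMP4 and bFGF. Both groups carry the same cell line label, FGSCs from ovary, and no strain or age is given in the labels. The 8 libraries comprised 2 immunoprecipitated (IP) and 2 input libraries per group, and a peak list was deposited for each IP library. The study describes the acRIP-seq replicates as 2 biological replicates per group. The labels do not say whether these were separate cultures, so what their spread covers cannot be told from the labels.

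The FGSC lists held 22791 and 16290 peaks and the Dif-FGC lists 22480 and 13920, and here and below values for 4 lists follow the order FGSC 1, FGSC 2, Dif-FGC 1, Dif-FGC 2 unless lists are named. No read counts come with the lists, so sequencing depth is unknown and the lack of a called peak does not show that ac4C was missing. Because fold, the ratio of IP over input given by the peak caller, was set within each list, each peak was also placed by its percentile of fold in its own list, where 100 is the highest. The false discovery rate that the files give was high throughout, from 51.53% to 82.89% for the peaks of these genes in the FGSC lists, 56.14% to 66.01% in Dif-FGC 1 and 100% for every such peak in Dif-FGC 2. Of 6 germline markers, Ddx4, Dazl, Pou5f1 and Dppa3 had no peak in any list, Ifitm3 had a peak in both FGSC lists and neither Dif-FGC list (folds 39.27 and 13.20), and Prdm1 had one in Dif-FGC 2. Of 4 markers of meiotic entry, Stra8, Sycp3 and Sycp1 had none and Rec8 had a peak in every list but Dif-FGC 1. Of 8 granulosa cell markers 1, 1, 4 and 3 had a peak in the 4 lists. Nr5a1 and Nr5a2 had one in both Dif-FGC lists only, Amhr2 in Dif-FGC 1 and Inha in Dif-FGC 2. Inhba went the other way, with a peak in both FGSC lists and Dif-FGC 1 (strongest at the 74.3, 79.7 and 67.1 percentile). Amh, Fshr and Foxl2 had none. A peak shows enrichment and not expression, so these markers do not settle which cells gave the RNA, and the part of RNA from granulosa cells in the peaks below was not tested.

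Several of the strongest peaks lay at gene starts, so the sequences around the start sites of the 4 genes with a peak there are shown. The first runs across the start sites of the S6 kinase gene Rps6kb1 and its neighbour Tubd1 (delta-tubulin), at chr11:86544778-86545020 on the minus strand. Tubd1 is transcribed in the opposite direction. The capitals at the right end are the first 30 bases of Rps6kb1 from its RefSeq start site. Those at the left end are the reverse complement of the first 30 bases of Tubd1, with 183 bases in lower case between them. The RefSeq limits of Rps6kb1 reach 86544885, beyond the start site used (86544807), so part of the lower case lies within them.

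Rps6kb1-Tubd1: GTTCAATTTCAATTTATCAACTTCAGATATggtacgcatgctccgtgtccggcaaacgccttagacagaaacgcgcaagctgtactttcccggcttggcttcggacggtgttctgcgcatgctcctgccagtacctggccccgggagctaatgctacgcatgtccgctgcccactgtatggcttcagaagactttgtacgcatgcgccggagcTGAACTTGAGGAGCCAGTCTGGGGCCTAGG

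The starts of Mtor (chr4:148448552-148448611, plus strand), Rheb (chr5:24842332-24842391, minus strand) and Rragc (chr4:123917403-123917462, plus strand) are shown in the same way. The 30 bases before the RefSeq start site are in lower case and the first 30 bases from it in capitals. At Rheb the peak also covered bases before this site. All sequences are from RefSeq on GRCm38.p6, the assembly behind mm10.

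Mtor: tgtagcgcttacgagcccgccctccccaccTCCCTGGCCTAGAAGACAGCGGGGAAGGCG

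Rheb: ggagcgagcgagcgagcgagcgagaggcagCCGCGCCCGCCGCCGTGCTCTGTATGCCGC

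Rragc: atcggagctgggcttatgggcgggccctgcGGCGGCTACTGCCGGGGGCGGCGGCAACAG

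The kinase gene Mtor was the most often peaked of the 10, with 8 and 8 peaks in the FGSC lists and 9 and 6 in the Dif-FGC lists. Its strongest peak had folds of 18.46 and 9.74 in FGSCs against 18.35 and 30.25 in Dif-FGCs, which placed it at the 73.7, 63.0, 81.9 and 90.2 percentile. Both Dif-FGC percentiles were above both FGSC percentiles, although the strongest peak was at a different place in each list. Over all 10 genes, the count per list was 29, 21, 37 and 17 peaks, with an FGSC mean of 25 ± 5.66 and a Dif-FGC mean of 27 ± 14.1 (SD, n = 2), so the groups overlapped. The difference of 2 peaks, Dif-FGC minus FGSC, became -2 without FGSC 2 and -8 without Dif-FGC 1. These peaks made up 0.127%, 0.129%, 0.165% and 0.122% of the lists.

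**Figure D1:**
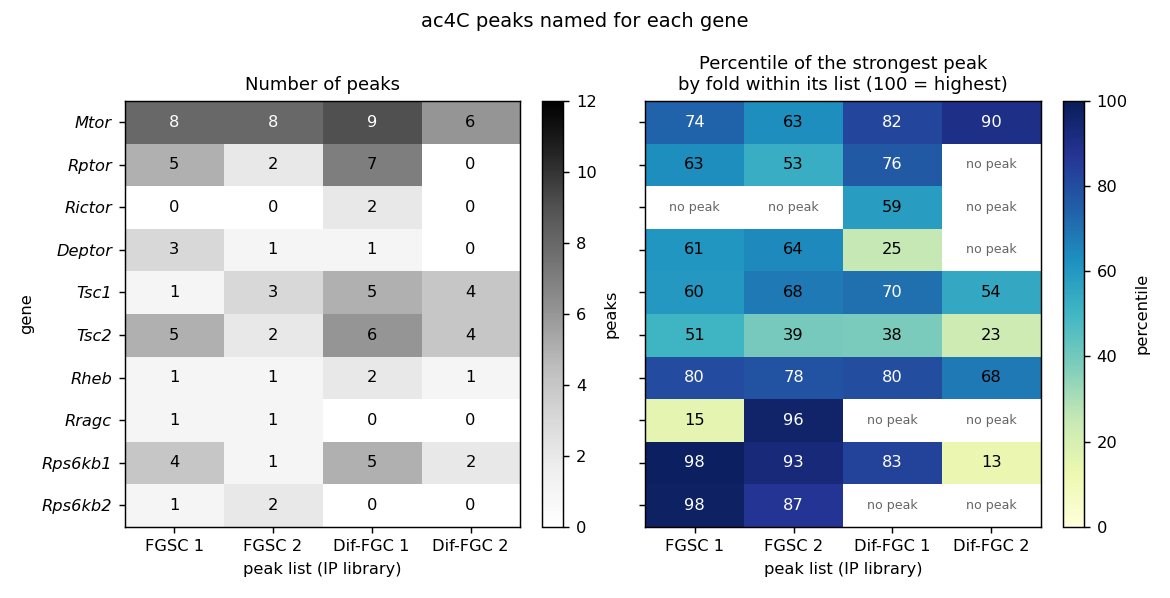
Number of ac4C peaks (left) and percentile of the strongest peak by fold within its list (right, 100 = highest) for each gene (rows) in each of the 4 peak lists (columns). Mtor has 6 to 9 peaks in every list, and peaks named Rragc and Rps6kb2 are in the FGSC lists only. The Rragc start also has a peak under another name, not counted here, in FGSC 1 and Dif-FGC 1.

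The peaks of Mtor fell into 17 loci, a locus being the merged span of peaks that overlap between lists by at least 1 bp. A peak at its start site (chr4:148448582-148448687) was in all 4 lists, with folds of 8.42 and 7.87 in FGSCs and 17.44 and 8.48 in Dif-FGCs. It reached the 41.1 and 55.4 percentile in the FGSC lists and 80.8 and 53.4 in the Dif-FGC lists, and the groups overlapped. A locus 7403 bp into the gene (chr4:148455985-148456119) was the other one in all 4 lists, with the same limits in 3 of them and folds of 10.77, 7.52, 8.50 and 30.25. The matching percentiles were 53.5, 53.5, 58.2 and 90.2, so Dif-FGC 2 stood apart and the other 3 lay close together.

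Another 3 loci of Mtor were in 3 lists each. At chr4:148464303-148464547 FGSC 2 had a fold of 2.30 and the Dif-FGC lists 6.58 and 10.98, the 1.30, 46.4 and 64.8 percentile, with no peak in FGSC 1. At chr4:148465891-148466096 FGSC 2 had 4.76 and the Dif-FGC lists 18.35 and 8.11, the 32.3, 81.9 and 51.3 percentile, again with no peak in FGSC 1. At both loci the FGSC 2 peak was the lowest of the 3 by percentile. The third, at chr4:148454552-148454951, had folds of 5.72 and 4.30 in FGSCs and 15.90 in Dif-FGC 2, the 19.8, 25.9 and 77.0 percentile, with none in Dif-FGC 1. Of the 31 peaks of Mtor, 15 lay in the first 10% of the gene, which spans 109104 bp. In such counts, here and below, a locus counted once for each list that had a peak there. For the 8 genes whose strand was known, 92 peaks had their midpoint within the gene limits. Of these, 25% were in that first stretch, against 28.5% of 60430 peaks of all genes. The Rheb start-site peak, centred before the start site, was left out of this count in all 4 lists.

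**Figure D2:**
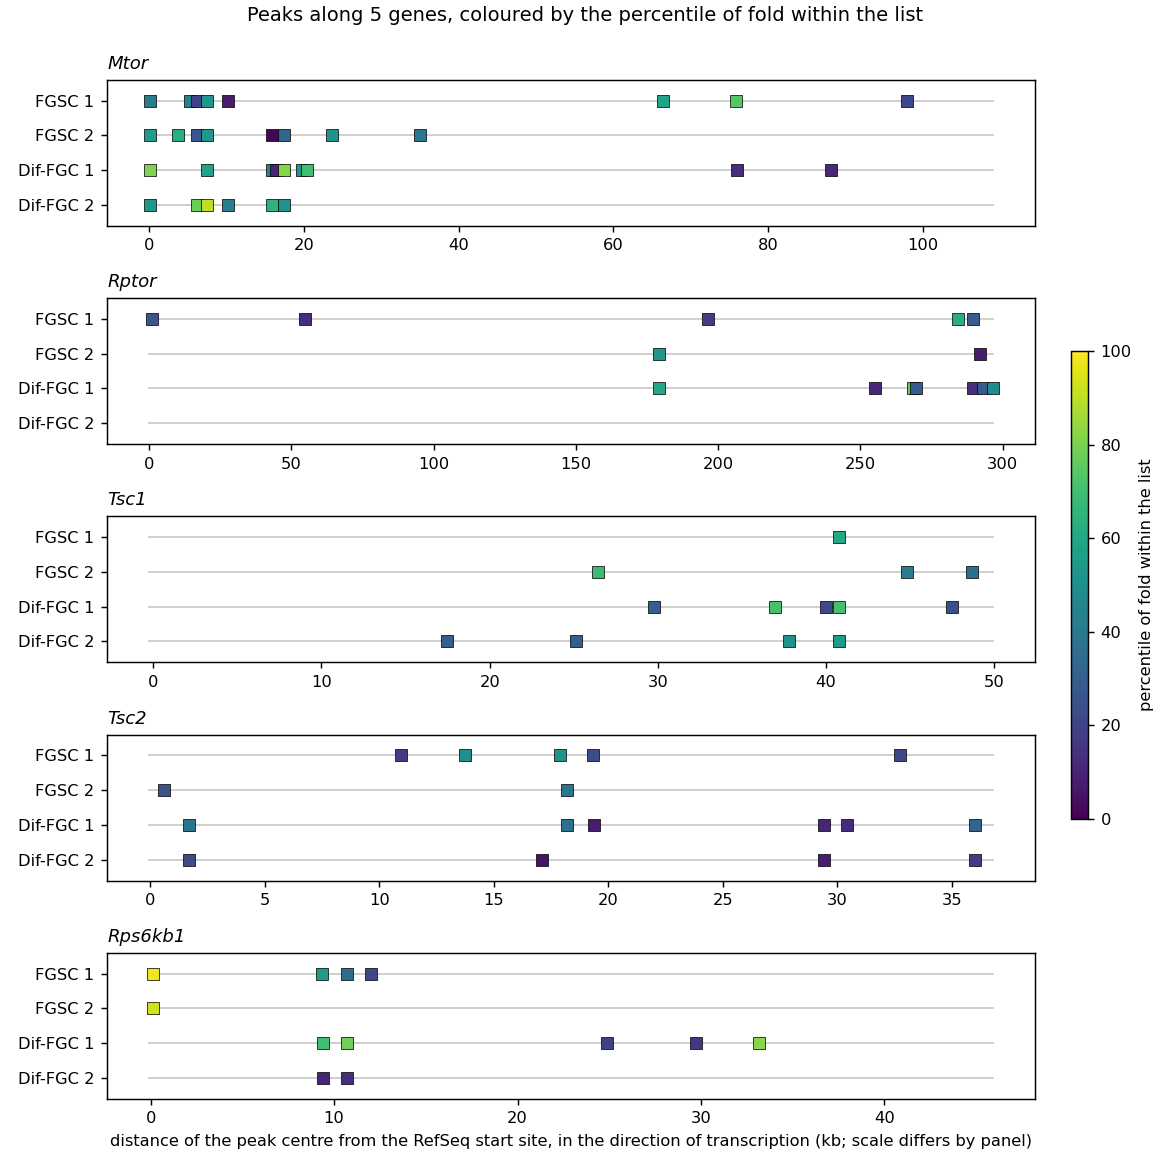
Peak centres along Mtor, Rptor, Tsc1, Tsc2 and Rps6kb1 (x axis, distance from the RefSeq start site in kb in the direction of transcription, with its own scale in each panel), a row for each list, coloured by the percentile of fold within the list. Of the Mtor peaks, counted over all lists, 15 of 31 are in the first 10% of the gene, against 28.5% of the peaks of all genes. The brightest Rps6kb1 squares are those at its start in FGSC 1 and FGSC 2.

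The complex 1 scaffold Rptor had 5, 2, 7 and 0 peaks in the 4 lists, at 12 loci across its 296687 bp. Its peaks lay towards the far end, with 8 of 14 in the last 10% of the gene, against 12.1% of the peaks of all genes. No locus of Rptor was in more than 2 lists. The most alike was chr11:119782065-119782281, some way into the gene, with a fold of 7.31 in FGSC 2 and 8.85 in Dif-FGC 1, the 52.7 and 59.8 percentile. The strongest Rptor peak was at a different locus in each list that had one, with folds of 13.69, 7.31 and 14.57 in FGSC 1, FGSC 2 and Dif-FGC 1.

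Rictor, the scaffold of complex 2, had only 2 peaks, both in Dif-FGC 1. One of 216 bp at chr15:6758160-6758375 had a fold of 8.56, the 58.6 percentile, and the other, near the start site, was 17 bp long. Deptor, an inhibitor that binds mTOR in both complexes, had 3, 1, 1 and 0 peaks, at 5 loci that no pair of lists shared. Its highest folds were 12.92 and 10.07 in FGSCs and 4.30 in Dif-FGC 1, the 60.8, 64.3 and 25.1 percentile. For Rptor, Rictor and Deptor alike, presence thus varied between replicates of the same group, and Dif-FGC 2, the shortest list, had a peak of none of them.

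Of the genes that restrain complex 1, Tsc1 (hamartin) had 1 and 3 peaks in the FGSC lists and 5 and 4 in the Dif-FGC lists. Each Dif-FGC list had more than each FGSC list, but 10 of its 11 loci were in 1 list each. The exception, chr2:28681912-28682034, had a fold of 12.59 in FGSC 1 and folds of 11.83 and 8.67 in Dif-FGCs, the 60.0, 70.1 and 54.5 percentile, and no peak in FGSC 2. None of the 13 Tsc1 peaks lay in the first 10% of the gene.

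Tsc2 (tuberin), the subunit that acts on Rheb, had 5 and 2 peaks in the FGSC lists and 6 and 4 in the Dif-FGC lists. All 3 loci of the 10 genes that had a peak in both Dif-FGC lists and in neither FGSC list were in Tsc2, and all were weak. At chr17:24630913-24630999, 1628 bp from the start site, the limits were the same in both lists and the folds were 5.61 and 4.94, the 38.5 and 22.8 percentile. At chr17:24603086-24603298 the limits were again the same, with folds of 3.16 and 3.63, the 10.9 and 8.18 percentile. At chr17:24596458-24596766, which also overlaps the RefSeq limits of Pkd1, the folds were 4.86 and 4.49, the 31.1 and 17.3 percentile. All 6 peaks stood at the 38.5 percentile of their list or below. These 3 loci were 4.17% of the 72 loci of the 10 genes, against 3.65% of all 39860 loci, so their share was near that of the whole series.

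No list had a Tsc2 peak at the Tsc2 start site. Its divergent neighbour Nthl1, a DNA glycosylase gene, had a peak just upstream (chr17:24632682-24632854) with the same limits in all 4 lists and folds of 27.44, 4.97, 11.55 and 7.68. Tsc2 itself was marked only within the gene, and the strongest of its peaks in any list reached the 50.6 percentile, in FGSC 1.

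Rheb, the direct activator of complex 1, had the steadiest peak of the 10 genes. It covered the start site, from -263 to 176 bp relative to it (chr5:24842185-24842624, 440 bp), and its limits were identical in all 4 lists. Folds were 23.56 and 16.50 in FGSCs against 16.57 and 11.98 in Dif-FGCs. The percentiles were 80.4, 78.2, 79.7 and 68.3, so Dif-FGC 2 was lowest and the other 3 lay within a few points of each other. With the start-site and the internal locus of Mtor, this made 3 loci in all 4 lists, 4.17% of the 72, against 15.5% of all loci. More of the loci of these genes were in a single list, 51 of 72 or 70.8%, against 54.7% of all loci, and 16, 10, 21 and 4 of the 51 came from the 4 lists.

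**Figure D3:**
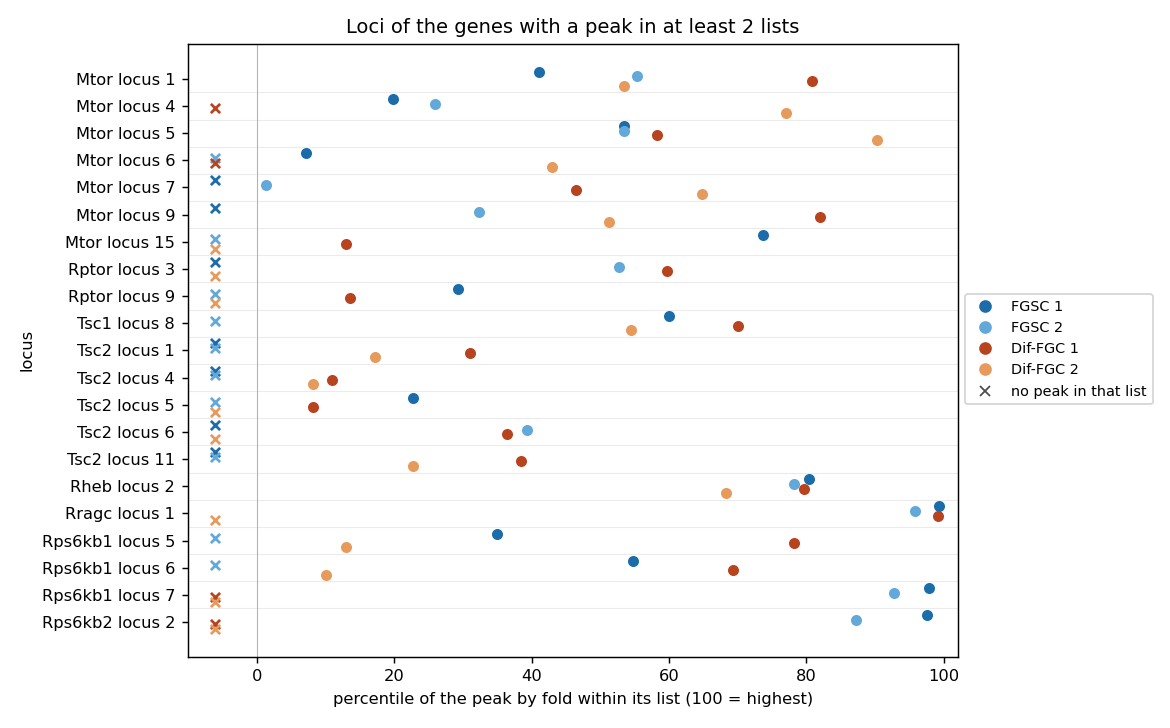
Percentile of fold within its list (x axis, 100 = highest) of every peak at the 21 loci found in at least 2 lists, with 1 row per locus, blue for FGSC lists, orange to red for Dif-FGC lists and a cross left of 0 where a list had no peak. Rheb locus 2 holds together at 68.3 to 80.4, the Rps6kb1 and Rps6kb2 loci without Dif-FGC peaks lie at 87.3 or above, the 3 Tsc2 loci without FGSC peaks lie at 38.5 or below, and 2 of the 3 peaks at Rragc locus 1 carry the name of another gene.

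Rragc, which pairs with RagA or RagB to bring complex 1 to the lysosome, had a named peak in FGSC 1 and FGSC 2 and in neither Dif-FGC list, but at different places. In FGSC 2 the peak began at the start site (chr4:123917433-123917744) with a fold of 73.08, the 95.8 percentile, and in FGSC 1 it was a weak one further in (chr4:123919849-123920053) with a fold of 5.24, the 14.9 percentile. The start of Rragc was not without a peak in the other lists. A peak named 4930535I16Rik began 71 bp after the Rragc start site in FGSC 1, with a fold of 192.67, and in Dif-FGC 1, with a fold of 168.29, the 99.3 and 99.1 percentile. The Rragc start thus had a peak of the highest percentiles in 3 lists, both groups among them, under different names, and none in Dif-FGC 2. The files give no strand, so which transcript carried the reads cannot be told apart.

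The S6 kinase genes had the strongest peaks with a group pattern. At the start site of Rps6kb1 (chr11:86544566-86544807, 242 bp) a peak was called in both FGSC lists with the same limits, at folds of 105.68 and 46.76, and in neither Dif-FGC list. It reached the 97.8 and 92.7 percentile, and its peak score, 10 times the negative log10 of the p-value, was 3100 in both. The peak began at the first base of the capitals at the right end of the sequence from Rps6kb1 to Tubd1. On the other side, Tubd1 had a peak in Dif-FGC 1 (chr11:86544991-86545237) with a fold of 137.38 and in Dif-FGC 2 (chr11:86544991-86545336) with a fold of 53.37, the 98.8 and 95.8 percentile, and none in either FGSC list. Both also scored 3100 and began at the RefSeq start site of Tubd1. The Rheb peak of Dif-FGC 1, with a fold of 16.57, had this score too, so equal scores do not show equal strength.

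Of these divergent genes, Rps6kb1 thus had a start-site peak in both FGSC lists and Tubd1 had a separate one in both Dif-FGC lists. The intervals did not overlap. Among 1478 pairs of divergent genes with starts up to 500 bp apart, 147 had a start-site peak on both sides in some list, and 7 of these (4.76%) were split by group in this way. The comparison of pairs was chosen after these peaks had been seen. A start-site peak was one that touched the first 50 bases from the RefSeq start site. Of the 8 genes with a RefSeq window, 4 had one, of which Rps6kb1 alone was in both FGSC lists and no Dif-FGC list, Mtor and Rheb were in all 4 lists and none was in Dif-FGCs only. Over 6040 genes with a start-site peak these classes held 5.50%, 35.2% and 3.49%. Of 32851 RefSeq windows over all genes, of which a gene can have several, 26260 had no start-site peak in any list.

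**Figure D4:**
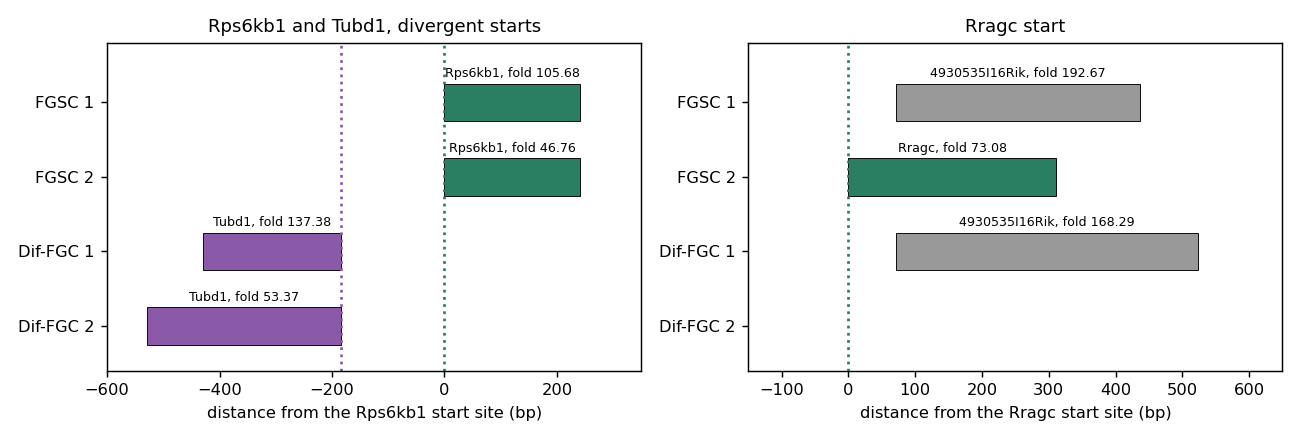
Extent of the peaks (boxes, labelled with the name and fold that the files give) in each of the 4 lists around the start sites of Rps6kb1 and Tubd1 (left) and Rragc (right), with distance in bp from the Rps6kb1 or Rragc start site on the x axis and start sites as dotted lines. The left panel shows Rps6kb1 boxes in FGSC 1 and FGSC 2 and Tubd1 boxes in Dif-FGC 1 and Dif-FGC 2, and the right panel shows boxes of either name in all lists but Dif-FGC 2.

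Inside Rps6kb1 the lists were not split by group. A locus at chr11:86534026-86534146 had the same limits in 3 lists, with a fold of 7.58 in FGSC 1 and folds of 15.61 and 4.10 in Dif-FGCs, the 34.9, 78.2 and 13.0 percentile. A locus close by, chr11:86535411-86535460, had folds of 11.18, 11.53 and 3.82 in the same lists, the 54.7, 69.2 and 10.1 percentile. FGSC 2 had no peak at either, its only Rps6kb1 peak being the one at the start. The strongest Rps6kb1 peak of Dif-FGC 1 was further from the start and 50 bp long, with a fold of 18.96, the 82.7 percentile, and the strongest of Dif-FGC 2 reached the 13.0 percentile.

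Rps6kb2, the gene of the second S6 kinase, had a peak at chr19:4163168-4163354 in both FGSC lists with the same limits, at folds of 100.02 and 28.00, and none in either Dif-FGC list. These were the 97.6 and 87.3 percentile, and the scores were 2329.01 and 950.70. The locus lies close to the right-hand limit of the gene at 4163383, and no start site or strand was at hand for it. FGSC 2 also had a weak peak of 78 bp at chr19:4157712-4157789, with a fold of 2.99. The loci at Rps6kb1 and Rps6kb2 were the only 2 of the 72 found in both FGSC lists and in no Dif-FGC list, 2.78% against 3.61% of all loci. Their number was thus no higher than in the whole series, while all 4 of their peaks stood at the 87.3 percentile or above.

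Counted by gene, 5 of the 10 (Mtor, Tsc1, Tsc2, Rheb and Rps6kb1) had a peak in all 4 lists, where 43.6% of all genes with a peak did. Rragc and Rps6kb2 had peaks in both FGSC lists and no Dif-FGC list, the class of 5.26% of all genes, and for Rragc this rested on the names described above. With lists of equal length, with the upper 50% by fold or with scores of at least 100, Deptor took the place of Rragc in that class. No gene of the 10 was in Dif-FGCs only, the class of 1.60% of all genes. The genes of the 10 with a peak in a list had a mean of 3.22, 2.33, 4.62 and 3.4 peaks there. Over all genes the mean was 2.52, 2.04, 2.63 and 2.15. In every list Mtor had the most of the 10, with 8, 8, 9 and 6. Most of these peaks were of middling strength, with a median percentile of 41.1, 51.4, 36.5 and 43.0, and 3, 4, 6 and 2 of them were above the 75 percentile of their list. Their length ran from 4 to 863 bp, and 12 of the 104 were shorter than 50 bp.

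The known ac4C motif, spelled CNNCNNCN, was searched on the transcribed strand in the first 50 bases from the start site of each RefSeq window. Overlapping matches were counted. Rheb had 5 matches and Rragc 7, whereas Mtor and Rps6kb1, which also had start-site peaks, had 0 each, as did Tubd1. Rictor had 3 matches, Tsc2 2, and Rptor and Tsc1 1 each, with no start-site peak. At least 1 match was found in 50.04% of all 32851 windows, in 66.4% of those with a start-site peak in all 4 lists and in 46.9% of those with none. Of the first 50 bases, 50% were C in Rheb, 30% in Rragc and 22% in Mtor and in Rps6kb1. In the genes without a start-site peak it was 36% in Tsc2, 32% in Rictor, 26% in Rptor and 22% in Tsc1. The median was 30% C in windows with a start-site peak in all 4 lists and 24% in those with none. A match is a description of these letters only, and peaks extend beyond this window.

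A wider list of 67 genes of the pathway, without the 10, gave 60 with a peak. Of these, 34 (56.7%) had it in all 4 lists, against the 43.6% of all genes given above, and by role the counts were 4 of 4, 6 of 14, 11 of 26 and 13 of 16. No test was made of these shares. The share of all annotated genes that had a peak was not counted. Thus 60 of 67, and the counts of genes with a peak by role below, have no background beside them. Among complex subunits and assembly factors, 4 of 7 had a peak and all 4 had it in every list. Mapkap1, a complex 2 subunit, had a strongest fold of 27.82 and 61.67 in FGSCs and 34.31 and 14.33 in Dif-FGCs. Akt1s1, the complex 1 inhibitor PRAS40, had 46.14 and 12.77 in FGSCs and 24.75 and 30.11 in Dif-FGCs. In both genes the groups overlapped, also by percentile (84.1, 94.8, 91.5 and 74.2 for Mapkap1, 92.1, 71.7, 87.2 and 90.1 for Akt1s1). Mlst8, the subunit common to both complexes, had no peak in any list, nor did Prr5l and Tti1.

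All 14 genes grouped as Tsc, Rheb and insulin input had a peak and 6 had it in every list. The strongest was Pik3r1, the regulatory subunit of PI3 kinase, with folds of 163.72 and 245.41 in FGSCs and 94.77 and 132.46 in Dif-FGCs. Its percentiles were 99.01, 99.14, 98.07 and 99.09, so the groups overlapped by rank. Stk11, the kinase LKB1, had 14.35 and 27.03 in FGSCs and 16.40 and 13.97 in Dif-FGCs, the 65.1, 86.8, 79.4 and 73.3 percentile. In the branch that senses amino acids, 26 of 28 genes had a peak and 11 had it in every list. The highest ranked were Lamtor1, which anchors the Ragulator complex to the lysosome, with 24.23, 26.11, 29.34 and 22.28, and Mios, a GATOR2 subunit, with 27.98, 22.02, 12.99 and 13.83 as strongest folds in the 4 lists. By percentile these were 81.1, 86.4, 89.6 and 85.0 for Lamtor1 and 84.2, 83.8, 73.2 and 72.9 for Mios. Rraga and Nprl2 had no peak.

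Among targets, 16 of 18 had a peak, 13 of them in every list. Akt1, the kinase that complex 2 phosphorylates, had strongest folds of 132.94 and 109.00 in FGSCs and 73.93 and 93.30 in Dif-FGCs, but its percentiles of 98.57, 97.50, 97.03 and 98.40 overlapped between the groups. Larp1, which holds back mRNAs of ribosomal proteins, had 83.60 and 62.47 in FGSCs and 186.80 and 147.96 in Dif-FGCs, the 96.8, 94.9, 99.3 and 99.3 percentile. Rps6, the ribosomal protein that gives the S6 kinases their name, had no peak, nor did Sgk3. Of the 60 genes with a peak, 4 (6.67%) had peaks in both FGSC lists only and 1 (1.67%) in both Dif-FGC lists only. Both shares were near those of all genes with a peak, 5.26% and 1.60%. The 4 were the Rag GTPase Rragb (strongest fold 12 and 3.78 in FGSC 1 and FGSC 2), the Ragulator subunit Lamtor5 (10.96 and 3.45), the arginine sensor Castor1 (10.60 and 3.09) and Maf1, a repressor of RNA polymerase III (4.50 and 20.10). In that order their percentiles were 58.3 and 19.0, 54.1 and 13.9, 52.1 and 8.82, and 9.23 and 82.1. Each thus had a peak low in 1 of the FGSC lists. The 1 in both Dif-FGC lists only was Slc38a9, the lysosomal arginine transporter, with folds of 5.79 and 7.92, the 40.1 and 49.9 percentile.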

How the data were processed

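acRIP-seq libraries of FGSCs and Dif-FGCs (2 IP and 2 input libraries each) were grouped by sample title. Per the labels, RNA without ribosomal RNA was broken to fragments, which an ac4C antibody pulled down. The submitters' processing notes name cutadapt, HISAT2, MACS2 and mm10, with no versions. The authors deposited 1 peak list per IP library, limited to peaks named for mRNAs. The deposited fold is an IP to input ratio, the deposited score is 10 times the negative log10 of the p-value, the deposited FDR is a percent, and the deposited length is in bp. The form of these columns resembles MACS releases before MACS2, so their exact definition is not settled. FDR was not used as a filter. Gene annotations and enrichment terms in the tables were not used.

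Intervals in the files were taken as counted from 0 and half-open, since 2800 of 75481 peak starts plus 1, and 90 without it, met a RefSeq gene start of GRCm38.p6. Printed positions count from 1. The 11417 names were looked up in that table, where 10652 were symbols, 430 gene IDs and 175 synonyms, while 160 stayed unmatched. Loci are unions of peaks that share at least 1 bp, whatever their names, with Python 3.11.15, pandas 2.3.3 and numpy 2.4.6, and the merging was tested on simulated intervals. A locus or gene was in 1 group only where both lists of that group and neither of the other had a peak. Start sites and sequences came from RefSeq promoter windows, which 8 of the 10 genes had. Exon, coding and untranslated regions were not assigned, since no genome annotation with exons was used here. Per-peak differential tests were not made, as the lists hold no counts. With 2 against 2 libraries the smallest two-sided p an exact permutation test could give is 0.33.

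The 10 genes, the list of 67 pathway genes and the marker lists were chosen with earlier results of these data known. All 10 were named, as were pathway genes with peaks in 1 group only and, for each role, the 2 with the best mean percentile among those in all 4 lists. Nthl1, Tubd1 and 4930535I16Rik, and the start-site and motif descriptions, were chosen after values were seen. Alternatives were lists cut to 13920 peaks each, the upper 50% by fold, scores of at least 100, overlap of at least 50% of the shorter peak, presence in at least 1 library of a group, RefSeq gene limits in place of names, and leaving out each library.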

Additional observations from a re-analysis of the deposited data

How the results depend on the processing

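Of 90 values under the alternatives, 60 stayed within 1.5 times the main count or kept their direction, 28 moved further and 2 reversed. The 2 loci in FGSCs only, at Rps6kb1 and Rps6kb2, were the same 2 with lists of equal length, the upper 50% by fold, scores of at least 100, overlap of 50% and RefSeq gene limits. The 3 loci in Dif-FGCs only did not hold in this way: with lists of equal length they were in Mtor, Rps6kb1 and Tsc2, with scores of at least 100 in Mtor and Tsc2, and with the upper 50% by fold there was 1, in Mtor. With presence in at least 1 library of a group each group had 28 loci of its own. The 72 loci became 46 with lists of equal length and 30 with the upper 50%. Genes in all 4 lists fell from 5 to 3 with the upper 50%, and genes in FGSCs only from 2 to 1, Rps6kb2, with RefSeq gene limits. With equal lengths, the upper 50% and scores of at least 100 these were again 2, but Deptor stood in place of Rragc beside Rps6kb2. In the wider pathway list, genes in FGSCs only numbered 1 with equal lengths, 1 with the upper 50%, 0 with scores of at least 100 and 8 with presence in at least 1 library, against 4, and genes in Dif-FGCs only numbered 2, 2, 0 and 3 under the same settings, against 1. The cause was not tested.

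Leaving out 1 library gave 51 to 68 loci, 3 to 18 of them with FGSC peaks only, 5 to 24 with Dif-FGC peaks only and 4 to 6 in all lists kept, where fewer lists have to agree by construction. FGSC-only loci numbered 12 without FGSC 1, 18 without FGSC 2 and 3 without either Dif-FGC list. Dif-FGC-only loci numbered 6, 5, 7 and 24, and loci in all lists kept 5, 6, 4 and 4, without FGSC 1, FGSC 2, Dif-FGC 1 and Dif-FGC 2 in turn. Genes in FGSCs only were 2 to 4, with 4 (Rptor and Deptor besides) without Dif-FGC 1, and genes in all lists 5 to 7. The pathway list gave 4 to 8 FGSC-only genes and 1 to 3 Dif-FGC-only genes. The difference of 2 in mean peaks, Dif-FGC minus FGSC, ran from -8 without Dif-FGC 1 to 12 without Dif-FGC 2, and was -2 without FGSC 2. No paired analysis was possible because these results come from no test and the replicate numbers only name the samples. Depth is not given in the lists, so what it limits cannot be stated.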
